A study of Mus musculus with 38 samples.

Results

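The genes described here encode 8 subunits of the GABA-A receptor that lie outside the Ube3a locus: Gabra2, Gabra3, and Gabra4 (alpha subunits), Gabrb1 and Gabrb2 (beta subunits), Gabrg1 (gamma), Gabrd (delta), and Gabre (epsilon). They were taken from the count table by gene symbol, and all 8 were found among its 54165 genes. They are 8 of the 19 GABA-A subunit genes in the table. The libraries came from prefrontal cortex (PFC) and hypothalamus (Hypo) of adult FVB/NJ mice, WT or Ube3a2X, a line homozygous for a transgene that adds copies of Ube3a, the gene of an E3 ubiquitin ligase. The 8 groups were female (F) and male (M) mice of each genotype in each tissue, with 5 libraries in each PFC group, 4 in each Hypo WT group, and 5 in each Hypo Ube3a2X group. These 38 libraries came from 25 mice, of which 13 gave both tissues. No group received a treatment. The comparisons address how the subunit make-up differed between PFC and Hypo, and whether a higher Ube3a dosage changed it in either sex. The PFC was sampled by micropunch and the Hypo was excised, and the tissues were extracted with different kits and entered the library preparation with different amounts of RNA, so tissue and handling cannot be told apart.

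GABA-A receptors are chloride channels opened by GABA, the main inhibitory transmitter of the adult brain, and each is a pentamer of subunits. Most contain alpha and beta subunits together with a gamma or a delta subunit, and the mix sets where the receptor sits and which drugs act on it. Gamma-containing receptors gather mainly at synapses, whereas delta-containing receptors lie outside the synapse, carry tonic inhibition, and respond strongly to neurosteroids. The epsilon subunit is known from hypothalamic and brainstem neurons. GABA-A subunit genes lie in clusters, and the members here make up the cluster on chromosome 5 and part of another on chromosome X.

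The 4 members on chromosome 5 (GRCm38) were Gabrg1 (70751047-70842617, minus strand), Gabra2 (70957597-71095849, minus), Gabra4 (71569749-71658308, minus), and Gabrb1 (71658113-72149037, plus). Gabra4 and Gabrb1 stand head to head, and 46 exonic bases between 71658113 and 71658308 belong to both. Whether the counting used strand is not given in the sources used here, so reads on those bases cannot be assigned with certainty to either gene. The bases are few beside the 6083 exonic bases of Gabra4 and the 13838 of Gabrb1. On chromosome X lie Gabre (72255999-72274803, minus) and Gabra3 (72432681-72656848, minus). Gabrb2 is on chromosome 11 (42419757-42629028, plus) and Gabrd on chromosome 4 (155384980-155398112, minus).

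Promoter sequence (RefSeq, GRCm38.p6) was at hand for 7 of the 8 members, all but Gabrd. The stretches upstream of the start are shown for the 4 genes of the chromosome 5 cluster, because these neighbours differed between the tissues in both directions, and for Gabre, which had the largest tissue difference of the 8. Bases inside an annotated exon of any gene were removed, and capitals mark matches to motifs on either strand.
Gabrg1 (chr5:70842618-70842867, minus strand): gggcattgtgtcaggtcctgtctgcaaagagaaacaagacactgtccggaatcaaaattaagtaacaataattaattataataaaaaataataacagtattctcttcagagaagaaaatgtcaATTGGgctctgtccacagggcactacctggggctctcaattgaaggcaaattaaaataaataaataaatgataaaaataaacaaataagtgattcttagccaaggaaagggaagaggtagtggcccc
Gabra2 (chr5:71095850-71096099, minus strand): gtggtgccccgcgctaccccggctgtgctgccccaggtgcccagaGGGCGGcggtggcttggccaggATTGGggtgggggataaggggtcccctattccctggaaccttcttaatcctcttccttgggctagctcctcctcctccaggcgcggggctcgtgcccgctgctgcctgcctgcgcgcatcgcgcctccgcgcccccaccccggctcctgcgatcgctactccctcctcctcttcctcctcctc
Gabra4 (chr5:71658364-71658558, minus strand): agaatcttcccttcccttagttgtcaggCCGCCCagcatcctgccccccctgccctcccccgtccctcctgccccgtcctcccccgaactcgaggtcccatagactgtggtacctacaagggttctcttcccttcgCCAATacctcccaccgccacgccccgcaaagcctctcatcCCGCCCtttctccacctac
Gabrb1 (chr5:71699825-71699931, plus strand, the downstream start of 2 listed): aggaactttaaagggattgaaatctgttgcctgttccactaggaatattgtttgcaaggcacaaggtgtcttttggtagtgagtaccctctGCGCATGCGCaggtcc
Gabre (chrX:72274804-72274971, minus strand): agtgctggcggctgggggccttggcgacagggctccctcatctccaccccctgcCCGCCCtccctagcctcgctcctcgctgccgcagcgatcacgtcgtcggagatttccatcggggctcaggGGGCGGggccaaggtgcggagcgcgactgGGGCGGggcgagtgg
The motifs, searched on both strands, were the TATA box with the letters TATAAA, the box of that name with the letters CCAAT, the GC box with the letters GGGCGG, the cAMP response element with the letters TGACGTCA, and the core bound by the factor NRF1 with the letters GCGCATGC. Of all 32851 promoter windows in the table, 12.4% held TATAAA, 33.8% CCAAT, 32.7% GGGCGG, 1.55% TGACGTCA, and 2.26% GCGCATGC within the 250 bases before the start. The stretches differed in base composition. Gabrg1 had 35.6% G and C and 1 CpG, whereas Gabra2 had 70% and 18 CpG, Gabra4 63.6% and 10, and Gabre 73.2% and 17. The median over all windows was 52.4% and 6 CpG. It was taken over 250 bases per window with exonic bases kept, whereas the stretches of Gabra4 (195 bases) and Gabre (168) were shorter. GC boxes were found in Gabra2, Gabra4, and Gabre and none in Gabrg1. The Gabrb1 stretch held GCGCATGC on both strands in overlapping positions, beginning at -16 and -14 from the start, and of the 11 windows of the members it was the 1 with this motif. The stretch of the other listed Gabrb1 start, 53 bases long outside exons, held none of the motifs. These matches describe the letters of the window only.

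Libraries held 36.9 to 69.14 M counted reads in the PFC, and 39 to 380.8 M in the Hypo. Ube3a read 108 to 350.2 CPM (counts scaled to library size) in the 18 WT libraries and 663 to 2239 in the 20 Ube3a2X libraries, and the genotypes did not overlap. The summed level of 6 cortical markers was 1970 to 2570 CPM in PFC against 8.23 to 20 in Hypo, and that of 8 hypothalamic markers was 0.887 to 3.71 CPM in PFC against 198 to 990 in Hypo. Neither sum overlapped between the tissues. Astrocyte markers summed to 1400 to 3040 CPM in PFC against 2440 to 2930 in Hypo, and oligodendrocyte markers to 880 to 3140 and 2880 to 5030 CPM. Microglial markers summed to 196 to 329 CPM in PFC against 148 to 196 in Hypo, and endothelial markers to 117 to 316 against 101 to 142. Those of choroid plexus, at 1.19 to 3.85 CPM in PFC against 40.1 to 74.4 in Hypo, did not overlap either. Their part in the tissue differences was not tested. In these bulk samples, fewer cells of a type and less RNA per cell cannot be told apart. The 4 markers of pituitary (Gh, Prl, Tshb, and Cga) summed to 15 to 4790 CPM in the Hypo, and 1 library stood apart.

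This library, Hypo WT F 471, had the highest pituitary sum (4790 CPM, with 15 to 917 in the other Hypo libraries), and also the highest sums of hypothalamic (990, others 198 to 504), oligodendrocyte (5030, others 2880 to 4340), striatal (109, others 81.9 to 92.5), and cortical markers (20, others 8.23 to 19.1), while its choroid plexus sum was the lowest (40.1, others 44.2 to 74.4). It had the lowest share of coding bases (37.5%, others 46.2% to 51.1%), and the least even coverage of transcripts (a coefficient of variation of 0.649, others 0.395 to 0.533). Its RNA integrity number (RIN), 9.3, was at the top of the range of the Hypo libraries. Gabrb2 was 8.79 CPM in this library against 135 to 235 in the 17 other Hypo libraries. Gabrb1, Gabrg1, and Gabra4 were also lower in it than in any other Hypo library. Gabra3, Gabrd, and Gabre lay inside the range of the others, and Gabra2, at 325 CPM, was just above their highest of 323. In the PFC, 3 libraries had coverage less even than the 17 others (0.43 to 0.517): WT F 397 (0.562), Ube3a2X F 468 (0.717), and Ube3a2X M 258 (0.631).

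Per kilobase of exon, the members covered a range of levels in each tissue. In the PFC, Gabra3 stood first with a median of 92.1 CPM per kb, followed by Gabrb2 (35.8), Gabra2 (35.6), Gabra4 (32.2), Gabrb1 (17.6), Gabrd (16.2), Gabrg1 (5.62), and Gabre (0.0424). Gabrb2 exceeded Gabra2 in 9 of the 20 libraries, Gabra2 exceeded Gabra4 in 15, and Gabrb1 exceeded Gabrd in 11, so the order of these neighbours did not hold beyond their spread, whereas the other steps held in all 20. In the Hypo the order was Gabra3 (49), Gabra2 (37.9), Gabrb1 (26.7), Gabrb2 (26.3), Gabrg1 (20.9), Gabre (10.6), Gabra4 (7.72), and Gabrd (0.356). Here Gabrb1 exceeded Gabrb2 in 9 of the 18 libraries and Gabrb2 exceeded Gabrg1 in 15, and the other steps held in all 18. Gabra3 was thus the highest of the 8 per kilobase in every library of both tissues, and Gabre and Gabrd took the last place in PFC and Hypo, respectively.

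**Figure D1:**
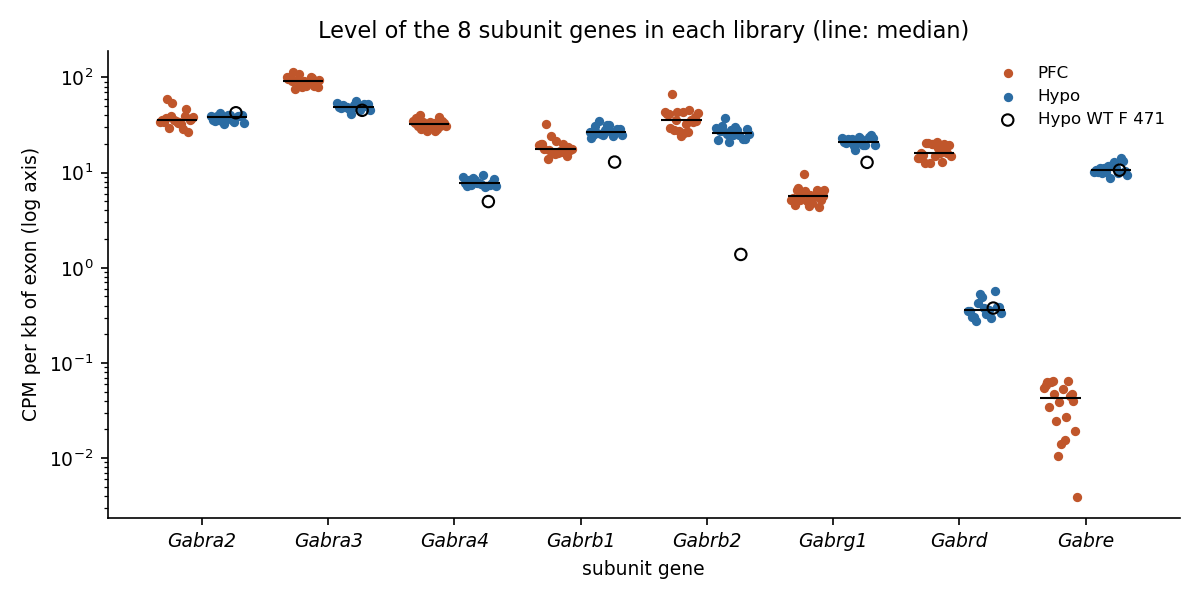
Level of each subunit gene in CPM per kilobase of exon (log axis) in the 20 PFC and 18 Hypo libraries, 1 point per library with the median as a line; the open circle is Hypo WT F 471. Gabrd and Gabre separate the tissues by the widest gaps, in opposite directions, and Gabra2 overlaps almost wholly.

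Between the tissues, the members were compared with the edgeR quasi-likelihood test on all 38 libraries, and a gene was tested when it had enough reads in at least 1 tissue. Gabrd met this only in the PFC and Gabre only in the Hypo, the tissue in which each was high, so they had to differ and their values are given without a p-value. Of the 6 members with enough reads in both tissues, 5 passed the test (adjusted p under 0.05), 3 higher in PFC and 2 higher in Hypo. Tissue differences were common in these data: 68.4% of the 14219 genes tested were called, 32.8% higher in PFC and 35.6% higher in Hypo, and of the 12569 genes with enough reads in both tissues 66.3% were called, 34.9% higher in PFC and 31.4% higher in Hypo, so a count of 5 of 6 is read against a high background. The median absolute log2 difference was 0.81 over the 6 members and 0.37 over these genes. For 3 of the 6, Gabra3, Gabra4, and Gabrg1, the 20 PFC and 18 Hypo libraries did not overlap at all, which held for 22.4% of the genes with enough reads in both tissues (25.9% of all genes tested).

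The delta subunit gene Gabrd was the member with the largest difference toward PFC. It was 36.1 to 59.8 CPM in the PFC (median 46.6) and 0.793 to 1.64 CPM in the Hypo (median 1.02). Every PFC library was far above every Hypo library, and the Hypo values rested on 45 to 357 reads per library. The log2 difference, PFC minus Hypo, was 5.42 ± 0.12 (SE), or 42.7-fold. All 13 mice with both tissues had more Gabrd in the PFC.

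The epsilon subunit gene Gabre showed the opposite pattern. It was 41.2 to 66.6 CPM in the Hypo (median 50.3) and 0.0187 to 0.309 CPM in the PFC (median 0.201). The PFC values came from 1 to 18 reads per library and 188 reads over all 20 libraries, so its level there is known only roughly. The log2 difference was -7.93 ± 0.17, with Gabre higher in the Hypo of all 13 mice with both tissues. Its neighbour on chromosome X, Gabra3, moved the other way.

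Gabra3, an alpha subunit that is found with epsilon in some receptors, was 295 to 449 CPM in the PFC (median 361) and 161 to 220 CPM in the Hypo (median 192). The groups did not overlap, and the log2 difference was 0.99 ± 0.07 (adjusted p = 1.21e-14), higher in PFC in 13 of 13 mice. Gabrq, the theta subunit gene on the same chromosome (72825178-72842602, plus strand), is no member and was named as the largest difference toward Hypo among the other genes of the GABA pathway. It was 0.562 to 1.74 CPM in PFC against 107 to 203 CPM in Hypo (log2 difference -7.27, given without a p-value for the same reason). In the order of the chromosome, Gabra3 lies between Gabre and Gabrq, and of the 3 it alone was higher in PFC.

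Gabra4, the alpha subunit that pairs with delta in forebrain receptors, was 165 to 244 CPM in the PFC (median 196) and 30.2 to 56.7 CPM in the Hypo (median 46.9). The lowest PFC library was above the highest Hypo library by a wide margin. The log2 difference was 2.07 ± 0.09, or 4.18-fold (adjusted p = 1.37e-20), in the same direction in 13 of 13 mice. Gabra2, an alpha subunit typical of synaptic receptors, was 204 to 448 CPM in the PFC (median 272) and 245 to 325 CPM in the Hypo (median 290). The ranges overlapped, the log2 difference was 0.08 ± 0.11 (adjusted p = 0.536), and 5 of 13 mice had more in the PFC. Without the 4 libraries of uneven coverage the sign turned and the difference passed the test, at -0.19 ± 0.09 (adjusted p = 0.0437), while over the 48 alternatives the adjusted p ranged from 0.0437 to 1. Ube3a2X F 468 and Ube3a2X M 258 held the highest Gabra2 values of the PFC, 448 and 406 CPM.

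Gabrg1, a gamma subunit gene with a narrower distribution in the brain than other gamma subunits, was 34.3 to 75.6 CPM in the PFC (median 44.2) and 101 to 195 CPM in the Hypo (median 165). The lowest Hypo value was that of library 471, and still lay above every PFC library. The log2 difference was -1.78 ± 0.12 (adjusted p = 3.35e-15), higher in Hypo in 13 of 13 mice. Within the chromosome 5 cluster, the order along the chromosome was thus Gabrg1 higher in Hypo, Gabra2 without a call, Gabra4 higher in PFC, and Gabrb1 higher in Hypo. The promoter stretch of Gabrg1 shown above was the poorest in G and C of the 4.

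The beta subunit genes depended on the libraries and the model more than the other called members did. Gabrb1 was 194 to 450 CPM in the PFC (median 244) and 179 to 479 CPM in the Hypo (median 370). The log2 difference was -0.41 ± 0.13 (adjusted p = 0.00696), with 12 of 13 mice higher in Hypo. With the mouse as a block, on the 13 mice with both tissues, it was -0.32 ± 0.27 and was not called (adjusted p = 0.357, the highest of its 48 alternatives). Without the 4 uneven libraries it was -0.68 ± 0.08 (adjusted p = 7.91e-09, the lowest of them).

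Gabrb2 was 155 to 425 CPM in the PFC (median 228) and 8.79 to 235 CPM in the Hypo (median 167). Outside library 471 the Hypo minimum was 135 CPM, and the ranges of the tissues overlapped. The log2 difference was 0.63 ± 0.28 (adjusted p = 0.0478), with 10 of 13 mice higher in PFC. Of 38 fits that omitted a single library, 28 no longer gave the call, and neither did limma-voom (adjusted p = 0.0952). Without Hypo WT F 471 the difference was 0.60 ± 0.14 (adjusted p = 2.54e-04), and without the 4 uneven libraries 0.32 ± 0.12 (adjusted p = 0.0210), in the range of 2.54e-04 to 0.287 over all alternatives. The direction toward PFC was kept in each of them.

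**Figure D2:**
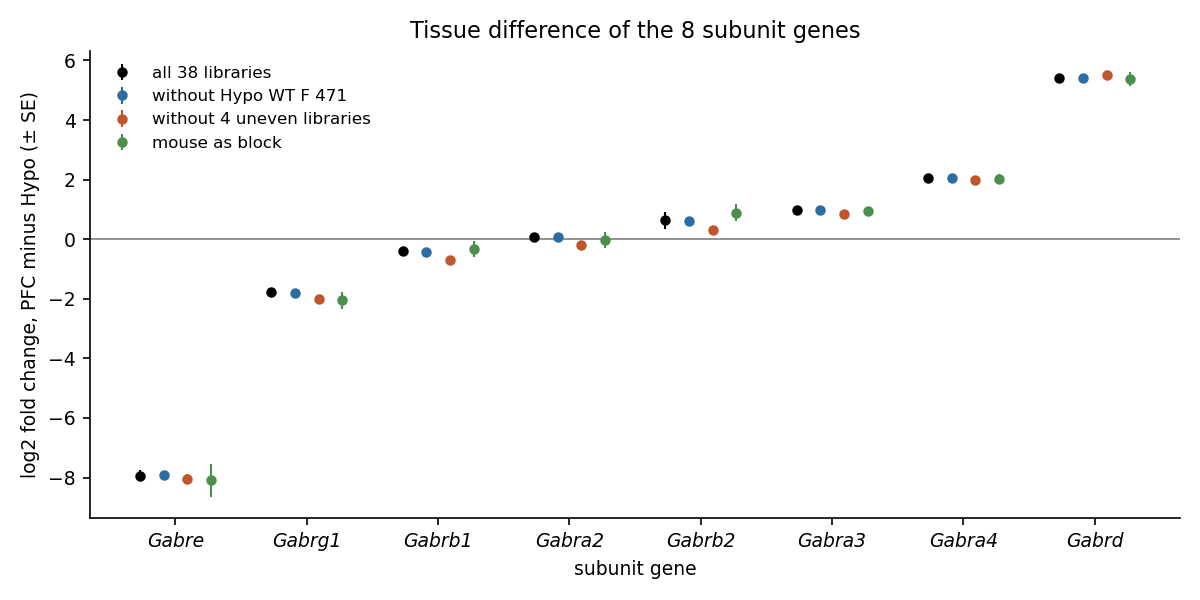
Log2 fold change of each subunit gene, PFC minus Hypo, with its standard error, in the fit of all 38 libraries, without Hypo WT F 471, without the 4 libraries of uneven coverage, and with the mouse as a block. The values run from -7.93 for Gabre to 5.42 for Gabrd; Gabra2 lies near 0 and changes sign.

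As a share of the summed level per kilobase of the 8 members, a description with no test, Gabra3 took a median of 38.2% in the PFC (34.5% to 42.9%) and 27.5% in the Hypo (23.9% to 34.5%). Gabra4 took 13.9% in the PFC and 4.3% in the Hypo, and Gabrd 7.15% and 0.203%. The pair that forms extrasynaptic forebrain receptors thus made up more of the PFC sum than of the Hypo sum. Gabrg1 took 2.44% in the PFC and 11.8% in the Hypo, Gabrb1 7.62% and 14.9%, and Gabre 0.018% and 6%. Gabrb2 took similar shares, 15.5% and 15%. Gabra2 took a higher share in the Hypo, 20.5% (19.8% to 32.5%), than in the PFC, 15.6% (12.7% to 18.9%). In Hypo WT F 471 alone, Gabrb2 was 1.06%, Gabra2 32.5%, and Gabra3 34.5%. Without that library, Gabra3 was 23.9% to 28.7% in the Hypo. The 8 members together held 45.7% to 56.5% of the summed level of all 19 subunit genes in PFC against 45.6% to 48.6% in Hypo.

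**Figure D3:**
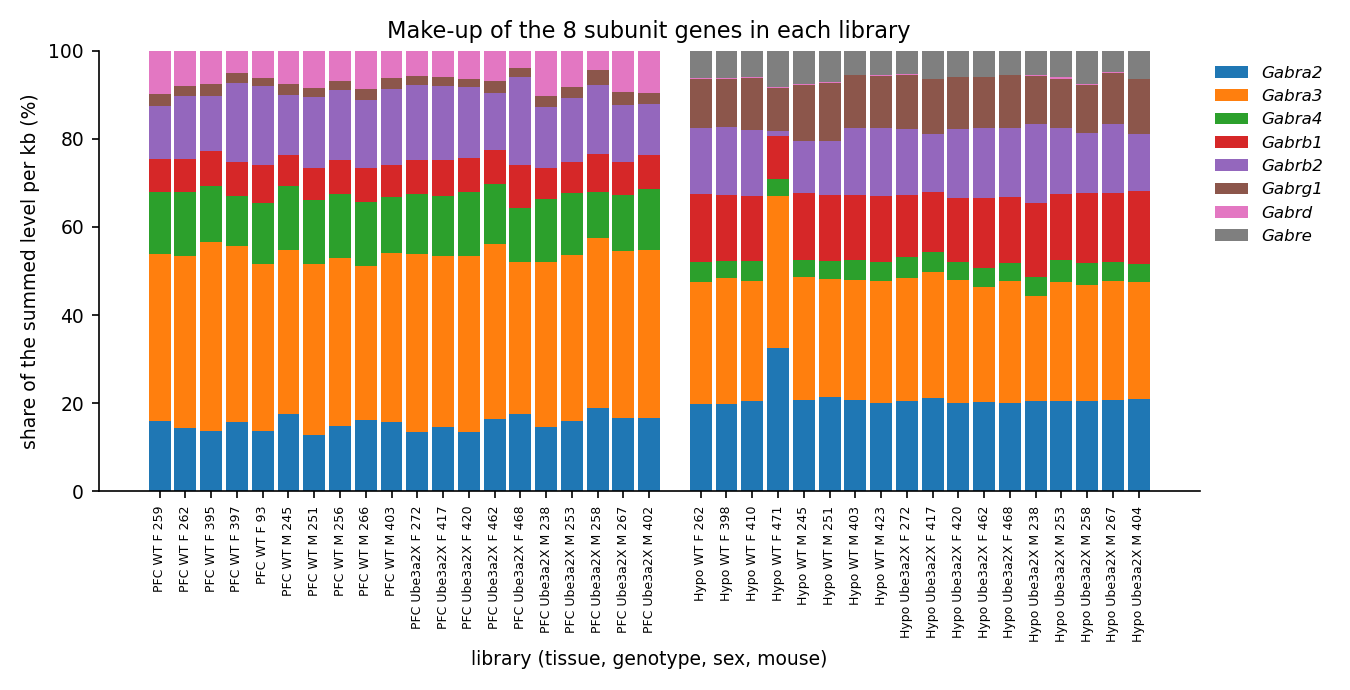
Share of each subunit gene in the summed level per kilobase of exon of the 8 members, in percent, 1 bar per library, with PFC on the left and Hypo on the right. Gabrd and Gabra4 take visible parts in the PFC and Gabrg1 and Gabre in the Hypo, and Hypo WT F 471 lacks most of its Gabrb2.

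Of the 38 other genes of the GABA pathway on a fixed list, 33 were tested between the tissues. Gabrq had enough reads in the Hypo only and is left out of the counts. Of the 32 others, 19 were called, 10 higher in PFC and 9 in Hypo, which is not above the 66.3% of all genes with enough reads in both tissues, and the counts below are read against that share. Of the 5 subunit genes among them, 2 were higher in PFC and 0 in Hypo. Of the 8 genes of GABA synthesis, transport, and breakdown, 1 was higher in PFC and 5 in Hypo. The latter included Slc6a11, the GABA transporter GAT3 of astrocytes (log2 difference -2.47, adjusted p = 4.30e-20), and Abat, the enzyme that breaks GABA down (-1.18, adjusted p = 4.91e-13). Of 15 genes of receptor clustering and trafficking, 6 were higher in PFC and 3 in Hypo, among them Plcl2, a binding protein of the receptor (1.35, adjusted p = 7.93e-16). Gabbr2, a subunit of the GABA-B receptor, was also higher in PFC (1.46, adjusted p = 5.11e-15). Of the 2 chloride transporters, 1 was higher in Hypo.

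The sex*genotype interaction, the effect of Ube3a2X in males minus that in females, was fitted within each tissue with RIN and 2 surrogate variables. In the PFC, 7 members were tested, since Gabre was too low, and 0 were called at an adjusted p under 0.05, as were 0 of all 10900 genes. At an unadjusted p under 0.05, 2 of the 7 passed, against 25.2% of all genes tested, which is a share near that background. Gabra4 was 205, 184, 202, 167, and 175 CPM in WT F, 232, 185, 213, 201, and 189 in WT M, 211, 204, 225, 190, and 244 in Ube3a2X F, and 173, 209, 179, 165, and 176 in Ube3a2X M. The highest value was in Ube3a2X F and the lowest in Ube3a2X M, and all groups overlapped. The interaction of Gabra4 was -0.33 ± 0.12 on the log2 scale (adjusted p = 0.126).

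Gabrb2 in the PFC was 277, 165, 207, 172, and 289 CPM in WT F, 226, 218, 244, 224, and 267 in WT M, 278, 265, 262, 186, and 425 in Ube3a2X F, and 178, 229, 279, 173, and 155 in Ube3a2X M. The highest values of WT F and of both Ube3a2X groups were those of the libraries with uneven coverage, 397, 468, and 258. The interaction was -0.28 ± 0.11 (adjusted p = 0.146). Without WT F 397, the estimates were -0.16 ± 0.13 for Gabra4 and -0.07 ± 0.10 for Gabrb2. Without the 3 PFC libraries of uneven coverage they were 0.04 ± 0.13 and 0.13 ± 0.12, with the sign turned. The surrogate variables were estimated anew in each of these fits, so the omitted libraries and the new surrogate variables cannot be told apart. By the CPM values alone, leaving out WT F 397 lowers the mean of WT F and makes the interaction of Gabrb2 more negative. More negative estimates came from other fits. Gabrb2 reached -0.47 without Ube3a2X F 462. With RIN as the sole covariate, and thus no surrogate variables, it reached -0.60 ± 0.26. Gabra4 reached -0.44 without Ube3a2X F 462. Each passed the threshold in some fits that left out a single library, Gabra4 in 3 of 20 and Gabrb2 in 2 of 20. For both, the fit without Ube3a2X F 462 was among them. In these 3 fits, 9.56%, 9.57%, and 14.9% of all genes tested were called as well, against 0 in each of the others, so these calls came with calls across the table, and the adjusted p over all 28 alternatives was 0.0363 to 1 for Gabra4 and 0.0214 to 1 for Gabrb2. The 5 other members had interactions of -0.10 to 0.11, and under other models these reached 0.35 for Gabrg1 (offset for GC and length) and 0.36 for Gabrd (components of the quality measures in place of surrogate variables), neither called.

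**Figure D4:**
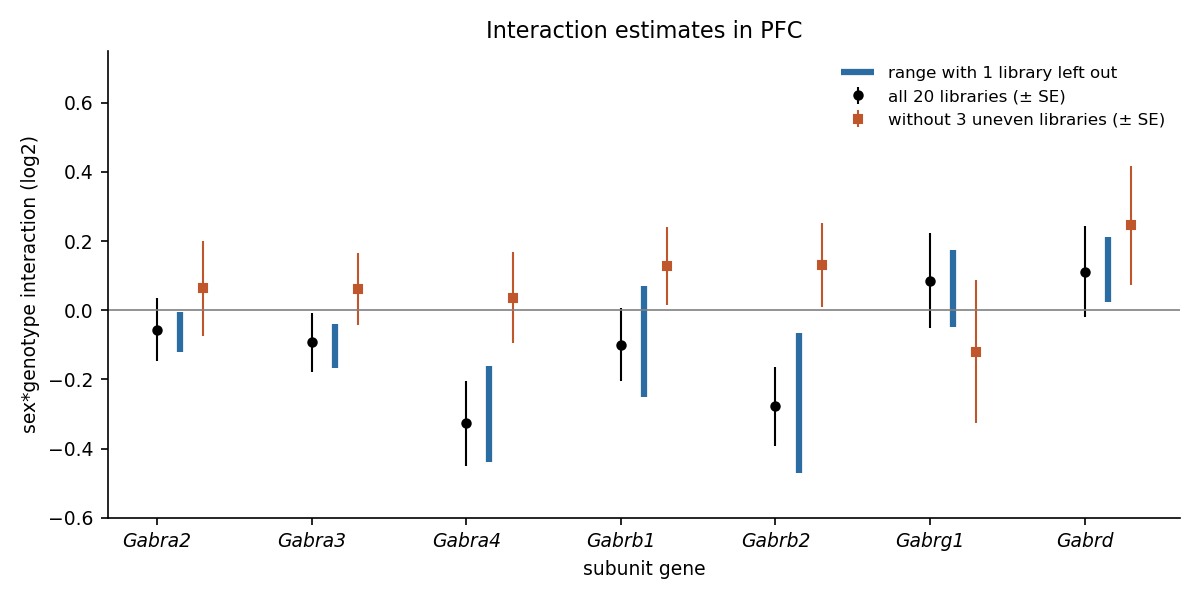
Sex*genotype interaction of the 7 tested subunit genes in the PFC on the log2 scale, with all 20 libraries (± SE), the range of 20 fits with a single library omitted, and the fit without the 3 libraries of uneven coverage (± SE). Gabra4 and Gabrb2, the lowest at -0.33 and -0.28, lie above 0 in the last fit. The surrogate variables were estimated anew in each fit.

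In the Hypo, 5 members were tested for the interaction. Gabra2 and Gabra3 were removed by the filter on low variance and Gabrd by the filter on low counts. None was called (0 of 5, and 0 of the 11869 genes), and 1 of 5 passed at an unadjusted p under 0.05, against 6.90% of all genes. This was Gabrg1, at 179, 154, 153, and 101 CPM in WT F, 187, 195, 181, and 154 in WT M, 183, 163, 160, 178, and 166 in Ube3a2X F, and 177, 150, 134, 162, and 187 in Ube3a2X M. The 101 CPM was again library 471, and the other values overlapped among the groups. The interaction was -0.32 ± 0.10 (adjusted p = 0.703), and -0.19 ± 0.11 without that library. Gabrb2 had an interaction of -0.34 ± 0.26 with library 471, 0.19 ± 0.20 without it, and -1.004 ± 0.44 with components of the quality measures (adjusted p = 0.215). With a filter that kept all 8 members (edgeR's filterByExpr, no variance filter), the interaction was -0.19 ± 0.11 for Gabra2, -0.15 ± 0.10 for Gabra3, and 0.01 ± 0.26 for Gabrd, none of them called.

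**Figure D5:**
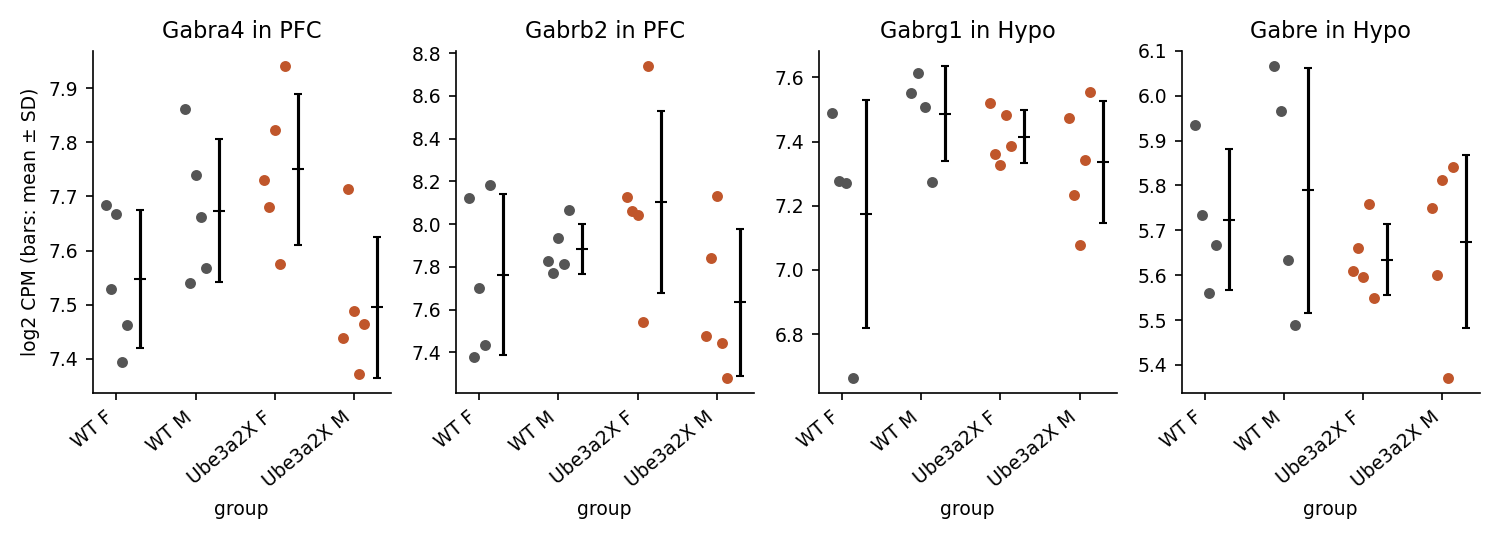
Log2 CPM of Gabra4 and Gabrb2 in the PFC and of Gabrg1 and Gabre in the Hypo by genotype and sex, 1 point per library with the group mean ± SD. The 4 groups overlap in each panel; the lowest Gabrg1 point is Hypo WT F 471.

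The effect of genotype averaged over the sexes was called for 0 of 7 members in the PFC (0.0183% of all genes called) and 0 of 5 in the Hypo (0.00843%). In the PFC it ran from -0.05 for Gabrb2 to 0.07 for Gabrg1. In the Hypo, Gabre was 60.7, 52.9, 46.9, and 50.4 CPM in WT F, 66.6, 62.2, 49.4, and 44.7 in WT M, 48.5, 50.3, 48.1, 53.8, and 46.5 in Ube3a2X F, and 53.5, 48.2, 55.9, 41.2, and 57.0 in Ube3a2X M. The genotypes overlapped, and the effect was -0.19 ± 0.08 (adjusted p = 0.910). By sex, no member was called for genotype in PFC males (0.0275% of all genes), PFC females (0.00917%), Hypo males (0%), or Hypo females (0.00843%). At an unadjusted p under 0.05 the members passing were 0 of 7 for genotype in PFC (7.90% of all genes), 1 of 5 in Hypo (5.24%), 2 of 7 in PFC males (18.3%), 0 of 7 in PFC females (14.6%), 2 of 5 in Hypo males (9.20%), and 0 of 5 in Hypo females (2.93%). DESeq2 and limma-voom also called 0 members. The effect of Gabrg1 in Hypo males was -0.26 ± 0.08 (adjusted p = 0.524), and -0.17 ± 0.08 without library 471. That of Gabrb2 in PFC males was -0.19 ± 0.08 (adjusted p = 0.213), and 0.0059 ± 0.077 without the 3 PFC libraries of uneven coverage. The surrogate variables of that fit were estimated anew. Ube3a2X M 258, among the libraries left out, held the highest Gabrb2 value of its group (279 CPM, WT M 218 to 267). By the CPM values alone, leaving it out makes the decrease in males larger.

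The effect of sex, males minus females, was called for 0 of 7 members in the PFC (0.0917% of all genes) and 0 of 5 in the Hypo (2.30%). In the PFC the member farthest from 0 was Gabrb1, at -0.16 ± 0.06 (adjusted p = 0.393). In the Hypo, Gabrd was 0.793 to 1.08 CPM in the 9 female libraries and 0.947 to 1.64 CPM in the 9 male libraries, with overlap. Its sex effect with the filter that kept it was 0.45 ± 0.13 (adjusted p = 0.112). Between the tissues, 0 of 8 members differed in the genotype effect (0% of 14219 genes) and 0 of 8 in the interaction (0%). At an unadjusted p under 0.05, the members passing were 2 of 7 for sex in the PFC (8.83% of all genes), 0 of 5 for sex in the Hypo (17.8%), 1 of 8 for the difference in genotype effect (8.66%), and 0 of 8 for that in the interaction (3.19%). The 1 of 8 was Gabre, whose PFC values rest on 1 to 18 reads per library and which entered this fit through its Hypo counts, so no effect in PFC can be read from it. For the interaction, Gabrg1 differed between the tissues by 0.45 ± 0.31 (adjusted p = 1), and by 0.15 ± 0.24 without the 4 uneven libraries, while Gabrb2 then stood at -0.77 ± 0.30 (adjusted p = 0.326). The fit over both tissues held RIN but no surrogate variables. Its values are therefore not the differences of the interactions fitted within each tissue.

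Within groups, the members varied together in part. As a description over libraries that share depth, dissection, and coverage, the deviations of log2 CPM from the group means correlated most in the 20 PFC libraries for Gabrb1 with Gabrb2 (r = 0.863), Gabra2 with Gabrb1 (0.859), and Gabra3 with Gabrb1 (0.808). In the 17 PFC libraries without uneven coverage these were 0.753, 0.579, and 0.68. Gabrd went against several members, with r = -0.733 to Gabrb2, -0.731 to Gabra3, -0.696 to Gabrb1, -0.5 to Gabrg1, and -0.495 to Gabra2. In the 17 libraries the values were closer to 0, at -0.48, -0.324, and -0.357, and those to Gabrg1 and Gabra2 turned to 0.139 and 0.22. In all 18 Hypo libraries, Gabrb1 varied with Gabrb2 at r = 0.897, and at 0.722 without library 471. Gabra2, in turn, had r = 0.278 to Gabrg1, 0.118 to Gabrb1, and 0.651 to Gabra3 in the 18, and 0.948, 0.905, and 0.903 in the 17, so this 1 library sets much of the pattern.

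Over all 38 libraries, among the 12569 genes with enough reads in both tissues, the genes most like each member in these deviations were Glg1 (r = 0.986) and Stxbp5l (0.985) for Gabrb2, Pds5b (0.965) and Srr (0.962) for Gabrb1, Luzp2 (0.958) and Yes1 (0.945) for Gabrg1, and Oxct1 (0.914) and Zfp131 (0.909) for Gabra3. Gabra2 was nearest to Dek (0.913) and Cop1 (0.885), and Gabra4 to Pias1 (0.869) and Cdk17 (0.868). The likeness was lower for Gabrd, with Ddost (0.728) and Retreg2 (0.706), and for Gabre, with Tuba8 (0.583) and Zfp119b (0.581). Without Hypo WT F 471, the values of Gabrb2 were 0.905 and 0.922 and those of Gabra4 0.783 and 0.793.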

How the data were processed

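RNA-seq was analysed in PFC and Hypo of WT and Ube3a2X mice. Per the labels and the study's methods, stranded paired-end mRNA libraries were prepared in 1 batch, and the authors mapped the reads to mm10 (GRCm38) using STAR and obtained gene counts using featureCounts, whose versions are not given in the sources used here. The deposited values are raw counts of 54165 genes, of which 53905 matched GENCODE vM21. Coordinates and exon lengths came from that release, which is not the release the authors name for their counts. The deposited quality measures hold a score for RNA integrity, which the authors measured on a Bioanalyzer, and, as the authors made them with Picard, a score for AT dropout, a fraction of bases per kind of region, a ratio for unevenness of coverage, and a count of aligned reads; shares were turned into percent.

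In R 4.3.3, edgeR 4.0.16 (TMM, glmQLFit with robust estimation, glmQLFTest) was fitted, Benjamini-Hochberg adjustment ran over all genes tested, and an adjusted p under 0.05 counted as a call. The tissue contrast and the differences between tissues used all 38 libraries, 8 groups, and RIN on 14219 genes. Within tissues, the model held 4 groups, RIN, and 2 surrogate variables (sva 3.50.0), on genes with fewer than 2 libraries under 100 reads and without the 15% of lowest variance (10900 genes in PFC, 11869 in Hypo). The surrogate variables were estimated anew in each fit that held them, also where libraries were left out. CPM values were scaled by TMM, and log2 CPM used a prior count of 2. Fits were tested on simulated data. Alternatives used limma 3.58.1 (voom), DESeq2 1.42.0, other filters, factors, and covariates, the mouse as a block, and fits without single libraries or without the 4 libraries of uneven coverage, the last chosen after the quality measures were seen. The same mouse number marks the same animal in both tissues; the deviations of such pairs from their group means correlated at -0.555 to 0.412 (median -0.0562, 13 mice). Within groups, no 2 libraries were alike within sampling noise (squared differences of 11.2 to 504 times it over 72 pairs), so each was counted as 1 replicate; the spread between libraries, from mice or handling, sets the precision.

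The members and the lists were chosen with earlier results of these data known. Besides the members, the text names, for each, the 2 genes most like it, of the GABA pathway list the 3 called genes with the largest tissue difference in each direction, Ube3a, and the pituitary markers, named after their values were seen because 1 library stood apart in them; 1 gene under this rule is not reported here. Python 3.11.15 read the annotation and matplotlib 3.10.9 drew the figures.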

Additional observations from a re-analysis of the deposited data

Results flagged for a closer look

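Within the 64 groups of 4 or 5 libraries formed by the 8 members, 7 held a library that stood apart by Dixon's test on log2 CPM, where chance gives about 1 group in 20, or 3.2 of 64. In Hypo WT F, Gabrb2 was 8.79 CPM in mouse 471 against 158 to 193 in the 3 others. In PFC Ube3a2X F, mouse 468 had the highest Gabra2 (448 CPM, others 263 to 285) and Gabrb1 (450 CPM, others 244 to 279). In PFC Ube3a2X M, Gabrd was 36.1 CPM in mouse 258 against 56.8 to 59 in the others. These 3 libraries are among the 4 with the least even coverage. The remaining groups were Gabra2 in Hypo WT M (253 CPM in mouse 423, others 298 to 304), Gabrb1 in PFC WT M (209 CPM in mouse 251, others 241 to 255), and Gabre in PFC Ube3a2X F (0.164 CPM in mouse 462, others 0.255 to 0.297, all on few reads).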

How the results depend on the processing

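Values are log2 differences. The tissue differences of Gabra3, Gabra4, and Gabrg1 kept their direction and their call under every alternative run, and that of Gabrb1 under all but the replicate block of the mouse (-0.32). Gabrb2 lost its call without a low-count filter (0.56), with limma-voom (0.67, and 0.67 in limma-voom with the replicate block), and in WT libraries only (0.55). The replicate block changed no other call. The tissue difference of Gabra2 turned to -0.016 without the RIN term, -0.024 with the replicate block, -0.14 in WT libraries only, and -0.19 without the uneven libraries. No interaction or genotype effect of a member passed the threshold outside fits that left out 1 library, and the cause of the changes of sign was not tested.

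The interaction in PFC turned without the uneven libraries to 0.064 for Gabra2, 0.061 for Gabra3, 0.037 for Gabra4, 0.13 for Gabrb1, 0.13 for Gabrb2, and -0.12 for Gabrg1. With the offset for GC and length it was 0.15 for Gabra2, 0.058 for Gabra3, 0.040 for Gabrb1, and -0.00062 for Gabrd. With quality components it was 0.15 for Gabra2 and 0.012 for Gabrb1, and with filterByExpr 0.020 for Gabra2. Larger values in the same direction were 0.35 for Gabrg1 with the offset, 0.36 with quality components and 0.33 with RIN only for Gabrd, -0.28 for Gabrb1, -0.20 for Gabra2, and -0.19 for Gabra3 with RIN only. In the Hypo, quality components gave -1.004 for Gabrb2, -0.56 for Gabrg1, and -0.35 for Gabrb1. The interaction in Hypo turned with the offset to 0.011 for Gabra4 and 0.029 for Gabrb1, and with filterByExpr to 0.0031 for Gabra4 and 0.20 for Gabrb2. The genotype effect in PFC turned to 0.013 (RIN only) and 0.055 (quality components) for Gabra4, to -0.012 without the uneven libraries for Gabrb1, to 0.0097 (filterByExpr), 0.12 (RIN only), and 0.0059 (quality components) for Gabrb2, and to 0.0042 (quality components) for Gabrd. The genotype effect in Hypo turned to 0.088 (RIN only), 0.025 (quality components), and 0.0055 (offset) for Gabra4, to 0.10 (RIN only) for Gabrb1, to 0.055 (filterByExpr), 0.30 (RIN only), and 0.14 (quality components) for Gabrb2, and to 0.014 (RIN only) for Gabrg1.

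Over the fits that each left out 1 library, the members called for the interaction in PFC numbered 0 to 2: 2 without Ube3a2X F 462 (9.57% of all genes called in that fit), 2 without WT F 93 (14.9%), and 1 without Ube3a2X M 253 (9.56%). No gene was called in the 17 others. The interaction of Gabrb2 in PFC ran from -0.47 to -0.067 and reached -0.60 with RIN only, and that of Gabra4 ran from -0.44 to -0.16. The tissue difference of Gabra2 ran from -0.075 to 0.16. The interaction in PFC ran from -0.25 to 0.071 for Gabrb1 and from -0.050 to 0.17 for Gabrg1, and that in Hypo from -0.19 to 0.10 for Gabra4, from -0.083 to 0.11 for Gabrb1, and from -0.47 to 0.19 for Gabrb2. The genotype effect in PFC ran from -0.067 to 0.016 for Gabra4, from -0.011 to 0.11 for Gabrb1, from -0.093 to 0.019 for Gabrb2, and from -0.059 to 0.0072 for Gabrd, and that in Hypo from -0.044 to 0.056 for Gabra4 and from -0.14 to 0.062 for Gabrb2. Without length, the median share of Gabrb1 was 17.8% in the PFC and 29% in the Hypo, and that of Gabra3 25.4% and 15.1%. In the Hypo, Gabrb1 and Gabra2 (21.9%) then stood above Gabra3. The share of Gabrd fell to 3.46% in the PFC and 0.0815% in the Hypo, and that of Gabre to 3.99% in the Hypo. Gabre in the PFC rests on 1 to 18 reads per library, which limits its level there.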
